A study of Mus musculus with 24 samples.

Results

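Ngef, Sprr2h, Bcl2l15, Lsmem1, Fam71a, C1qtnf7 and Apol8 are 7 genes about which little is known in Leydig cells. They were chosen by their measured differences over time in sham-treated cells, which were among the largest rises or falls of all probes. Every probe whose RefSeq transcript maps to these symbols was taken, which gave 10 of the 56605 probes of the array and 7 of the 23787 genes with a symbol. A probe was tested where the scanner software called it well above background on 2 or more of the 4 arrays in some group, which 9 of the 10 passed and 1 Apol8 probe did not. The differences over time in sham cells chose the genes and are given below as a description, with no test. Tests are given for the nsPEF-exposed cells over time and for nsPEF against sham.

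RNA came from TM3 cells, a Leydig cell line of the mouse, treated in suspension in cuvettes. Exposed cells received a nanosecond pulsed electric field (nsPEF) of 80 pulses, each 60 ns wide with an amplitude of 5.5 kV, which gave 14 kV/cm over 180 s at 26.4 pulses per minute. Sham cells of the same line went through the same handling without pulses. The 6 groups are sham (S0, S4 and S24) and nsPEF (E0, E4 and E24), named by the hours after treatment, with 4 biological replicates and 4 one-colour arrays in each. RNA was taken from whole pellets, so fewer cells that express a gene and less RNA per cell cannot be told apart.

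Leydig cells are the interstitial cells of the testis that make testosterone. Ngef (ephexin 1) is a guanine nucleotide exchange factor that acts downstream of Eph receptors, and C1qtnf7 is a secreted protein with a C1q-like domain. Sprr2h belongs to the small proline-rich proteins of the cornified envelope of epithelia, and Bcl2l15 (Bfk) to the Bcl2 family, which controls the permeability of the outer mitochondrial membrane. Apol8 is an apolipoprotein L, a family of mostly intracellular lipid-binding proteins, Fam71a (Garin4) belongs to a family of Golgi proteins that bind Rab2 and are known from male germ cells, and Lsmem1 is a leucine-rich membrane protein with a single membrane span.

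Each value is the log2 of the background-subtracted signal minus the 75th percentile of the array, so 0 stands for that percentile, which lay between intensities of 300.3 and 787.2 on the 24 arrays. Between 51.2% and 62.12% of probes were well above background on an array. Each time point had a slide of its own with 8 arrays, the sham arrays in the first row and the nsPEF arrays in the second, so time and slide, and treatment and place, cannot be told apart. Handling also differed with time. The paper describes a long preparation of the cells just before treatment and quick harvests at 4 h and 24 h. It proposes that high Fos, Jun and Egr1 at 0 h could come from the stress of that preparation. Time after treatment and handling cannot be told apart either. Dim probes near every member probe had a higher median on nsPEF than on sham arrays at each time, by 0.30 to 1.63 on the log2 scale. It is given in numbers beside only some of the results it touches. Of 8 Leydig markers 7 had a probe. Star, Cyp17a1 and Nr5a1 were well above background on 24 arrays, Cyp11a1, Hsd17b3 and Lhcgr on 0, and Hsd3b1 on 1 at most. Of markers for other cells, 1 of 5 Sertoli, 2 of 6 germ cell and 2 of 3 macrophage genes were above background on all arrays.

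The promoter windows of the genes with the highest 4 h values are shown. These genes were chosen for their large differences over time in sham cells, so their shared course follows from the choice. They come from RefSeq on the build GRCm38.p6, run 5′ to 3′ from 250 bases before to 50 after a transcript start, and capitals mark the motifs found.

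Sprr2h, chr3:92385435-92385734, plus strand: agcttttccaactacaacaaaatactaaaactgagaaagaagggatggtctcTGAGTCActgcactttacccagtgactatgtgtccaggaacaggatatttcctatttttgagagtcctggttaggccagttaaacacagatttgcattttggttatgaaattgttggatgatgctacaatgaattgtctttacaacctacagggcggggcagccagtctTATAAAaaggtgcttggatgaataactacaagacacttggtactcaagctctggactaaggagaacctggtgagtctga
Bcl2l15, chr3:103832446-103832745, plus strand: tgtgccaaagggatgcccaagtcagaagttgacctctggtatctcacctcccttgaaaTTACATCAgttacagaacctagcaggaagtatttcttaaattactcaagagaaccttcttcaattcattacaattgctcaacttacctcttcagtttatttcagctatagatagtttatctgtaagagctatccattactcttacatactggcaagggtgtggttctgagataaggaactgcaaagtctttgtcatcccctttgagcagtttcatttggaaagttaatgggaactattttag
Ngef, chr1:87573821-87574120, minus strand: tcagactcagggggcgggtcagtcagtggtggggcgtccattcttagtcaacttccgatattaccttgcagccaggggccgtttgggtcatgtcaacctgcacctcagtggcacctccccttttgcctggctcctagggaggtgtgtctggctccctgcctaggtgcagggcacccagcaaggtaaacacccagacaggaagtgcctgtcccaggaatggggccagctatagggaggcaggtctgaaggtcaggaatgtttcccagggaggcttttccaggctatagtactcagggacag

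The motifs searched on both strands were TGACGTCA (CRE), TGANTCA (AP-1), TGATGNAA (the CARE that Atf4 binds), the CArG box, GCGNGGGCG (Egr), TATAAA and CACGTG (E-box). In Sprr2h, an AP-1 match begins at position -198 and a TATAAA match at -29, counted from that start. The Bcl2l15 window holds a CARE match on the other strand at -192. No motif of the list was found in the windows of Ngef, Lsmem1, Fam71a, C1qtnf7 and Apol8. Of all 32851 promoter windows, 7.81% hold the AP-1 letters, 13.6% TATAAA and 3.97% the CARE. The matches are letters in a window and say nothing about binding.

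In exposed cells, 9 of the 9 tested probes differed between 4 h and 0 h, 5 of them higher and 4 lower, at an adjusted p under 0.05 in limma. Of all 37684 tested probes, 61.3% passed the same threshold, 32.8% higher and 28.4% lower, so a call by itself sets none of the 7 genes apart. Exposed arrays of each time shared a slide with the sham arrays that chose the genes, so this count is not independent of the choice. Lsmem1 passed the filter only through its 0 h arrays, and Bcl2l15 A_55_P1975877 and Sprr2h A_55_P2743355 only through their 4 h arrays. The median absolute log2 difference over all tested probes was 0.51. Of the member probes measured above background on all arrays of both groups, Bcl2l15 A_51_P309307 differed by 3.53 and Apol8 A_51_P115471 by -2.16. Ngef, Sprr2h and Bcl2l15 were high at 4 h, Lsmem1, Fam71a and Apol8 were high at 0 h and low from then on, and C1qtnf7 was low at 4 h and partly back at 24 h. Arrays at 4 h and 0 h did not overlap for 9 of 9 probes in exposed cells, beside 55.2% of all tested probes. In sham cells, whose values chose the genes, 9 of 9 did not overlap between 4 h and 0 h (57.5% of all), 8 between 24 h and 0 h (42%) and 8 between 24 h and 4 h (55.5%). The plot of values by array shows these courses in both treatments.

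**Figure D1:**
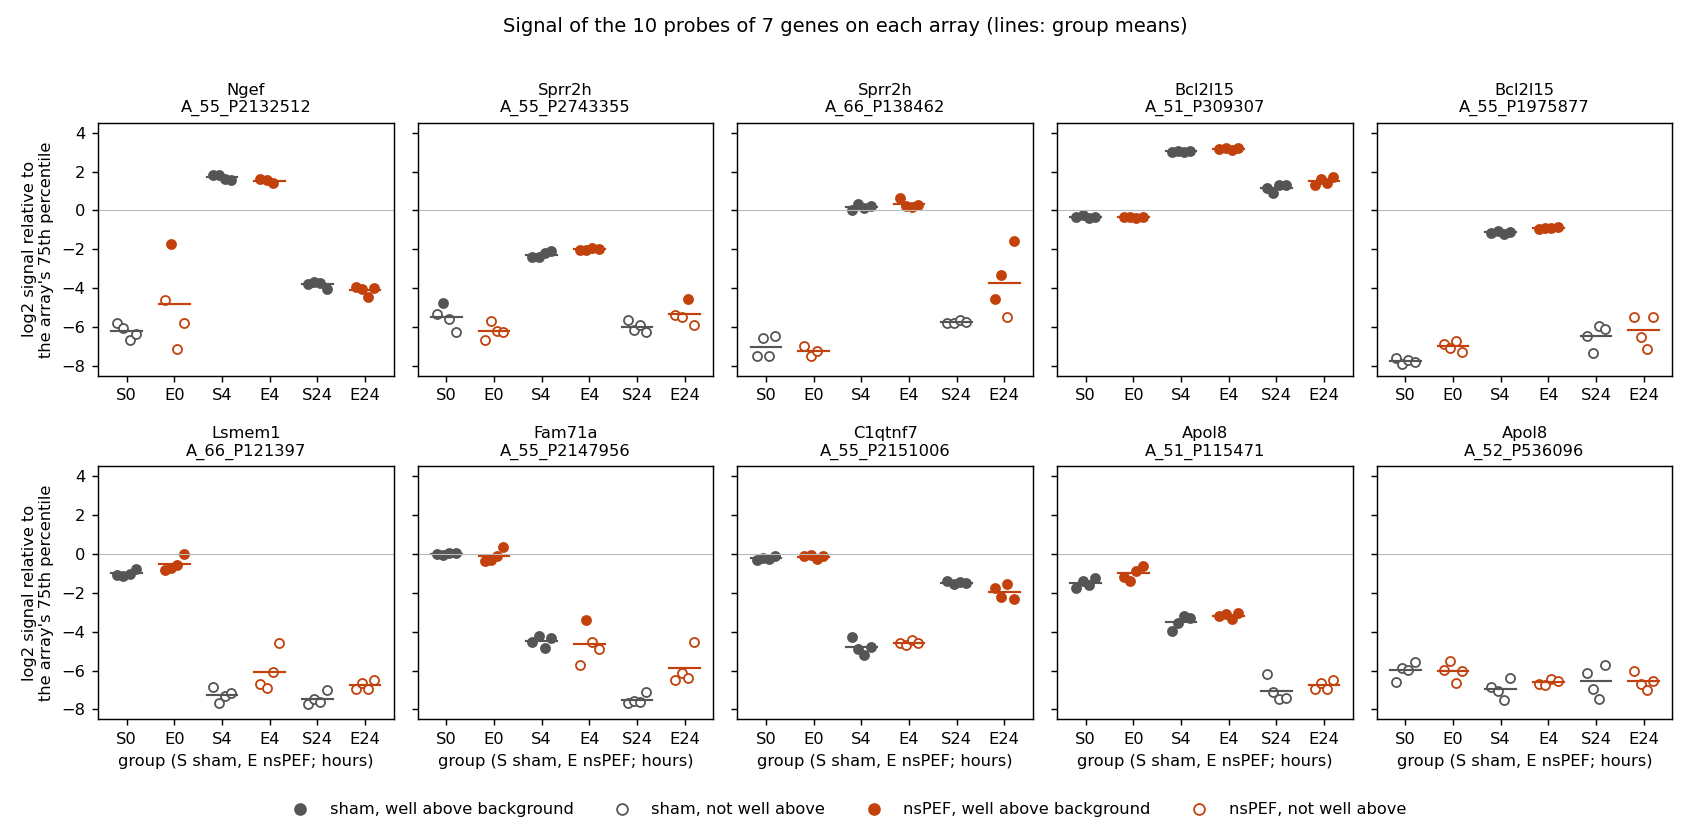
Log2 signal minus each array's 75th percentile (y axis) for the 10 probes in the 6 groups (x axis, S sham and E nsPEF with hours), 1 point per array, filled where well above background, with a line at each group mean. The 4 h points of Ngef, Sprr2h and Bcl2l15 lie above their 0 h points in both treatments, and those of Lsmem1, Fam71a, C1qtnf7 and Apol8 A_51_P115471 below.

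Ngef lies on chromosome 1 from 87476829 to 87573870 and had 1 probe. In sham cells its values were -5.77, -6.07, -6.66 and -6.35 at 0 h, 1.84, 1.84, 1.64 and 1.56 at 4 h, followed by -3.79, -3.70, -3.70 and -4.02 at 24 h. The sham groups did not overlap, no 0 h array had a signal well above background, and at 4 h it was at least 144.6-fold higher than at 0 h. A fold written as "at least" sets a group that is nowhere well above background to at least the lowest signal well above background on each of its arrays. That signal is the lowest of the whole array, and the limit at a single spot can be higher. On replicate 4 of E4 it was 13.4, while C1qtnf7 read 15.1 there and was not called well above background. Such folds are therefore approximate bounds.

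In nsPEF-exposed cells Ngef had values of -4.60, -1.73, -7.12 and -5.77 at 0 h, of 1.60, 1.54 and 1.39 at 4 h, where the spot of replicate 1 was left out by the mark of the software, and of -3.95, -4.01, -4.43 and -3.97 at 24 h. All 4 h arrays lay above all 0 h arrays, of which 1 of 4, replicate 2, was well above background. Ngef rose 79.7-fold from 0 h to 4 h (log2 difference 6.32 ± 0.72, SE of the fit, adjusted p = 2.96e-07) and fell 48.5-fold from 4 h to 24 h (adjusted p = 1.86e-06). Since the other 3 arrays of E0 were below background, the size of the rise rests in part on unmeasured values, and with each array floored at its background it was 5.67. Without replicate 2 of E0 the 4 h difference was 7.34, and without replicate 3 it was 5.54. Between 24 h and 0 h Ngef differed by 0.72 (adjusted p = 0.411), and without replicate 2 of E0 by 1.74 (adjusted p = 0.001), so that array decides this comparison. Around the Ngef spot, in row 25, dim probes were well above background on 10.8% of E0 and 1.98% of S0 readings. The part of this in the E0 values was not tested.

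Sprr2h lies on chromosome 3 from 92385685 to 92387324 and had 2 probes. A_66_P138462 read -7.50, -6.57, -7.48 and -6.44 in sham cells at 0 h, 0.04, 0.31, 0.11 and 0.25 at 4 h, followed by -5.80, -5.80, -5.63 and -5.72 at 24 h. Only the 4 h arrays were well above background, at least 49.6-fold above 0 h and at least 49.0-fold above 24 h. The second probe, A_55_P2743355, had sham means of -5.47, -2.27 and -5.97 and a 4 h value 9.22-fold above 0 h, with 1 of 4 arrays at 0 h well above background.

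In exposed cells the Sprr2h probe A_66_P138462 read -6.97, -7.47 and -7.22 at 0 h, 0.62, 0.25, 0.16 and 0.27 at 4 h, followed by -4.57, -3.30, -5.46 and -1.59 at 24 h. The 4 h arrays lay close together and the 24 h arrays spread widely, with replicate 4 highest. Sprr2h rose at least 40.8-fold from 0 h to 4 h on this probe (adjusted p = 4.97e-10) and at least 7.56-fold on the other (adjusted p = 3.28e-11), and it fell again by 24 h, 16.6-fold and 9.98-fold (adjusted p = 1.47e-06 and 1.83e-09). The other probe, A_55_P2743355, passed the filter only through its 4 h arrays, so its p-values add no support. The E0 spot of replicate 1 of A_66_P138462 was left out by the software's mark. It read 239, against a median of 2.83 on the other E0 arrays. With that spot kept, the 4 h difference was 5.88 in place of 7.54.

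At 24 h Sprr2h was still above 0 h in exposed cells on A_66_P138462, at least 2.46-fold (log2 difference 3.49, adjusted p = 5.79e-05), and without replicate 4 of E24 the log2 difference was 2.78. With the marked spot kept the call was lost (adjusted p = 0.177). The spot lies in row 5, near which dim probes were well above background on 19.7% of E0 and 21.7% of E24 readings, against 0.955% in S24. In S24 the probe itself was below background on all arrays. The part of this place in the 24 h values was not tested. On A_55_P2743355 the difference was 0.87 (adjusted p = 0.0146) with 1 of 4 E24 arrays well above background, no fold is given, and the call was lost without replicate 1 of E0 (adjusted p = 0.0551) or replicate 3 of E24 (adjusted p = 0.0669). Over 23 arrays the 2 probes had a Pearson r of 0.893, a description of arrays that share slides. Of 5 keratinocyte markers 4 had a probe, Krt5, Krt10 and Krt14 on 24 arrays and Krt1 on 2. Their summed level, in multiples of the 75th percentile, ran from 2.59 to 2.97 in S0, 2.61 to 2.76 in E0, 3.73 to 3.93 in S4, 3.45 to 4.00 in E4, 2.34 to 2.71 in S24 and 2.21 to 2.92 in E24, and its part in the Sprr2h values was not tested.

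Bcl2l15 lies on chromosome 3 from 103831036 to 103854618 and had 2 probes, listed under different RefSeq transcripts. A_51_P309307 was well above background on all 24 arrays, the only member probe of which this is true. Its sham values were -0.32, -0.25, -0.38 and -0.34 at 0 h, 3.01, 3.07, 3.01 and 3.06 at 4 h, followed by 1.15, 0.92, 1.29 and 1.33 at 24 h, which is 10.3-fold and 2.82-fold above 0 h. Replicates differed little beside these steps, with SDs of 0.05, 0.03 and 0.19.

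In exposed cells A_51_P309307 of Bcl2l15 read -0.35, -0.35, -0.40 and -0.33 at 0 h, 3.14, 3.21, 3.12 and 3.22 at 4 h, followed by 1.31, 1.59, 1.41 and 1.73 at 24 h, and the 3 groups did not overlap. Bcl2l15 rose 11.6-fold by 4 h (log2 difference 3.53 ± 0.08, adjusted p = 4.98e-18) and at 24 h was 3.65-fold above 0 h (adjusted p = 8.01e-13). The other probe, A_55_P1975877, was well above background at 4 h only, with means of -1.13 in S4 and -0.91 in E4 against -7.72 and -6.98 at 0 h. It rose at least 16.1-fold by 4 h in exposed cells (adjusted p = 3.91e-13) and fell at least 13.6-fold by 24 h (adjusted p = 6.98e-12). This probe passed the filter only through its 4 h arrays, so these p-values add no support. Its call between 24 h and 0 h (log2 difference 0.84, adjusted p = 0.0275) compares arrays that were all below background, and was lost without replicate 2 or 4 of E0 or replicate 1 or 4 of E24 (adjusted p = 0.0524, 0.078, 0.102 and 0.109). At 24 h A_51_P309307 was thus above background and A_55_P1975877 was not, and over 24 arrays the r between them was 0.928.

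Lsmem1 lies on chromosome 12 from 40176386 to 40199315 and had 1 probe. It read -1.09, -1.13, -1.03 and -0.76 in S0 and -0.81, -0.74, -0.58 and -0.03 in E0, and at 4 h and 24 h it was below background on all 16 arrays. In sham cells it was at least 23.0-fold lower at 4 h and at least 21.6-fold lower at 24 h. In exposed cells Lsmem1 fell at least 16.3-fold by 4 h (adjusted p = 1.45e-11) and at least 17.6-fold by 24 h (adjusted p = 2.64e-11). The probe passed the filter only through its 0 h arrays, so these p-values add no support to the falls. The difference between 24 h and 4 h (-0.70, adjusted p = 0.0877) is between values below background. Without replicate 1 or 2 of E4 it passed the threshold (adjusted p = 0.0379 and 0.02).

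Fam71a lies on chromosome 1 from 191162584 to 191164817. Its probe read -0.02, -0.05, 0.05 and 0.03 in S0, -4.54, -4.20, -4.85 and -4.32 in S4 and -7.68, -7.55, -7.63 and -7.11 in S24, where it was below background. The sham groups stepped down without overlap, 22.4-fold by 4 h and at least 43.4-fold by 24 h. In exposed cells the values were -0.38, -0.31, -0.10 and 0.35 at 0 h, -5.74, -3.40, -4.53 and -4.91 at 4 h, with replicate 2 alone well above background, and -6.47, -6.14, -6.41 and -4.55 at 24 h.

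Fam71a fell 23.2-fold by 4 h (log2 difference -4.54, adjusted p = 3.55e-09) and at least 23.6-fold by 24 h (adjusted p = 7.23e-10) in exposed cells. With each array floored at its background, where 3 of the 4 E4 arrays lie, the 4 h difference was -4.15. Exposed arrays at 4 h and 24 h overlapped, and the call between them (-1.24, adjusted p = 0.0113) was lost without replicate 2 of E4 (-0.83, adjusted p = 0.0573), the array that was above background.

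Apol8 lies on chromosome 15 from 77745109 to 77757062. A_51_P115471 read -1.77, -1.38, -1.60 and -1.24 in S0, -3.96, -3.56, -3.22 and -3.31 in S4 and was below background in S24, 4.04-fold and at least 15.3-fold lower than at 0 h. In E0 it read -1.19, -1.38, -0.87 and -0.60 and in E4 -3.20, -3.10, -3.37 and -3.02, and the groups did not overlap. Apol8 fell 4.47-fold by 4 h (adjusted p = 1.01e-07) and at least 12.6-fold by 24 h (adjusted p = 3.25e-13), so its fall went on after 4 h, at least 2.83-fold (adjusted p = 7.31e-11). The other probe, A_52_P536096, was below background on all 24 arrays, and no level of the transcript can be read from it.

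C1qtnf7 lies on chromosome 5 from 43515425 to 43619126. In sham cells it read -0.33, -0.21, -0.25 and -0.09 at 0 h, -4.26, -4.89, -5.20 and -4.78 at 4 h, followed by -1.41, -1.54, -1.44 and -1.51 at 24 h. It was 23.6-fold lower at 4 h than at 0 h and 9.88-fold higher at 24 h than at 4 h. Exposed arrays read -0.09, -0.06, -0.27 and -0.13 at 0 h, -4.58, -4.68, -4.42 and -4.59 at 4 h, followed by -1.74, -2.23, -1.53 and -2.31 at 24 h.

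C1qtnf7 fell at least 21.03-fold by 4 h in exposed cells (adjusted p = 4.25e-15) and rose at least 5.99-fold from 4 h to 24 h (adjusted p = 2.53e-11), the only member probe that rose in this step. At 24 h it remained 3.51-fold below 0 h (adjusted p = 2.91e-08). At 4 h the probe was well above background on 4 of 4 sham arrays and 0 of 4 nsPEF arrays, while the values overlap. Around its place, row 362 of the array, dim probes were well above background on 8.73% of S4 and 0.536% of E4 readings.

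From 0 h to 24 h in exposed cells 8 of 9 tested probes passed the threshold, 4 higher and 4 lower, beside 42.4% of all tested probes, 24.1% higher and 18.3% lower. From 4 h to 24 h 8 of 9 passed, 1 higher and 7 lower, beside 56.8%, 28.4% higher and 28.3% lower. Arrays did not overlap for 6 of 9 probes between 24 h and 0 h (38.2% of all) and for 7 of 9 between 24 h and 4 h (49.8%). Values that are below background at both times have no order, which leaves Bcl2l15 A_55_P1975877 without a usable difference from 0 h to 24 h. The plot of time differences in exposed cells shows the sizes.

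**Figure D2:**
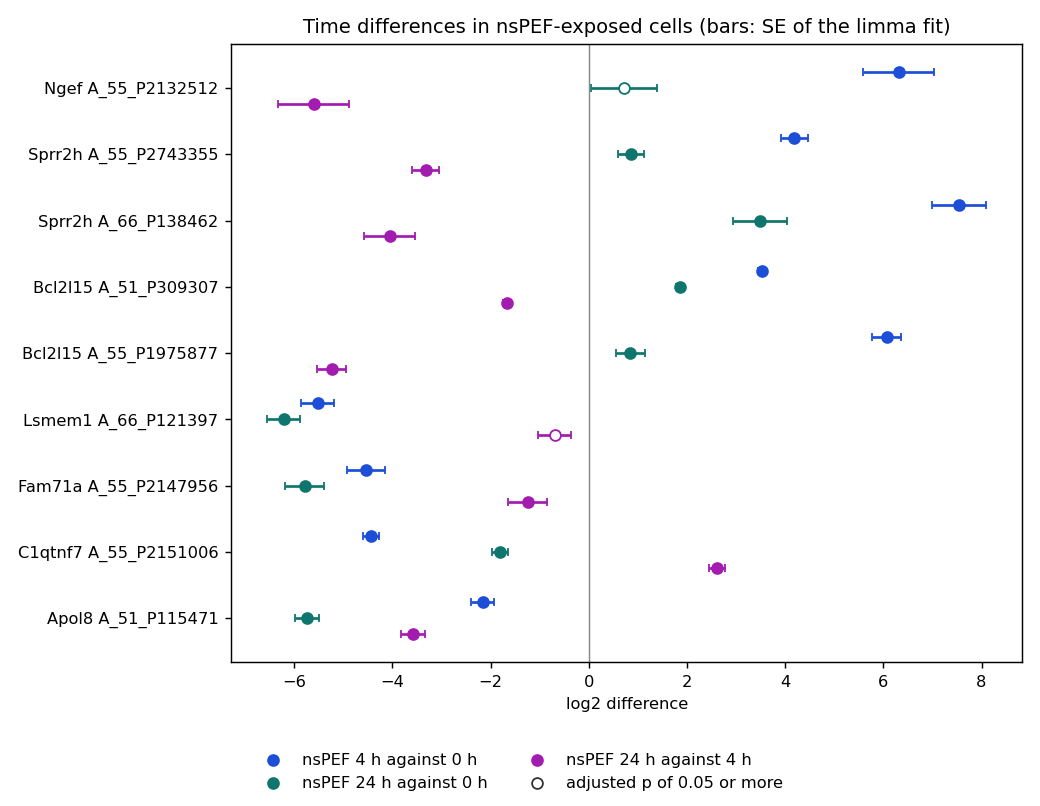
Log2 differences (x axis) of the 9 tested probes (y axis) between 4 h and 0 h, 24 h and 0 h, and 24 h and 4 h in nsPEF-exposed cells, with bars for the SE of the fit and open points at an adjusted p of 0.05 or more, all as fitted, also where a group is below background. Fitted differences run from -6.21 (Lsmem1, 24 h against 0 h) to 7.54 (Sprr2h, 4 h against 0 h), and the open points belong to Ngef at 24 h against 0 h and Lsmem1 at 24 h against 4 h.

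The second question was whether nsPEF exposure changed these levels at a given time. At 0 h, 0 of 9 probes passed the threshold in limma (2 at an unadjusted p under 0.05), beside 0.103% of all tested probes, 0.0557% higher and 0.0478% lower. At 4 h 0 of 9 passed (1 unadjusted), beside 3.47%, 1.74% in each direction. At 24 h 3 of 9 passed, all higher in nsPEF, beside 2.49% of all tested probes higher, 2.78% lower and 5.27% in either direction. Sham and nsPEF arrays did not overlap for 1 of 9 probes at 0 h (8.38% of all), 3 at 4 h (14.2%) and 3 at 24 h (14.7%). The 0 h probe, Bcl2l15 A_55_P1975877, and Lsmem1 and Fam71a at 24 h were below background in both groups, so their values have no order. Dim probes near these spots had median differences of 0.54, 0.72 and 0.77. The remaining probe at 24 h is Sprr2h A_66_P138462. The sham arrays entered both the comparison with nsPEF and the choice of the genes. The interaction of treatment and time passed for 0 of 9 probes (5 at an unadjusted p under 0.05), beside 0.361%, with a lowest adjusted p of 0.148 for Sprr2h A_55_P2743355, so a difference between the time courses of exposed and sham cells was not shown for any of them.

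**Figure D3:**
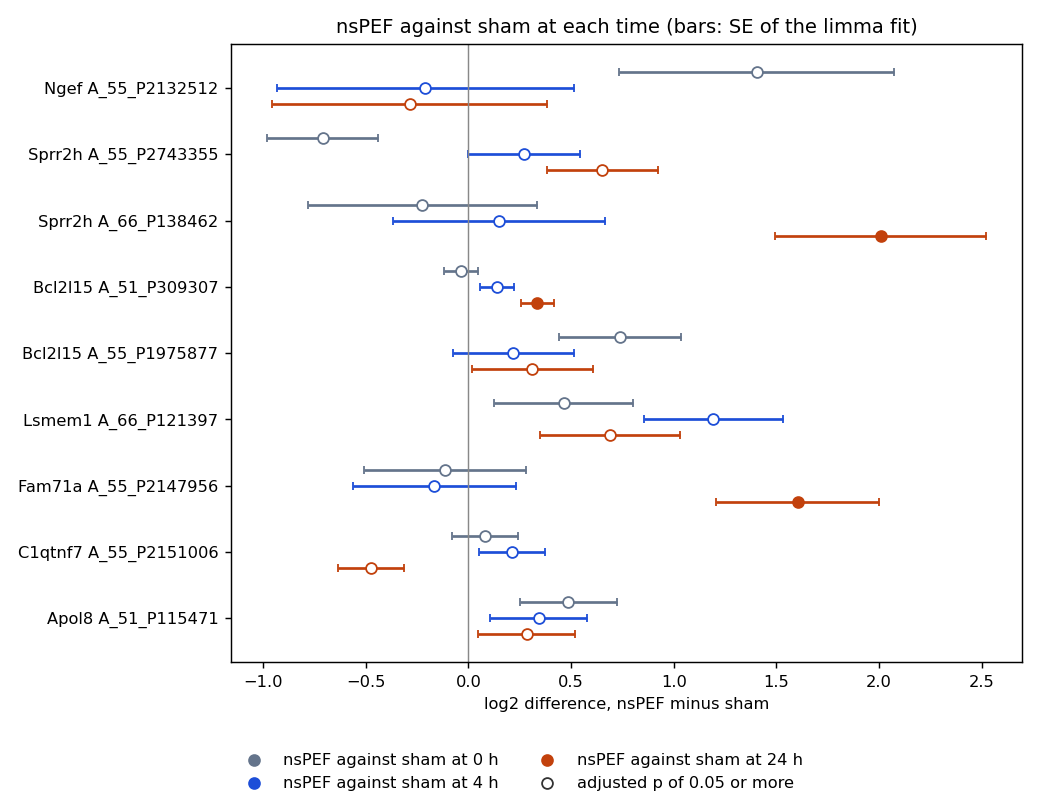
Log2 difference of nsPEF minus sham (x axis) at 0, 4 and 24 h for the 9 tested probes (y axis), with bars for the SE of the fit and open points at an adjusted p of 0.05 or more. The 3 filled points are Sprr2h A_66_P138462, Bcl2l15 A_51_P309307 and Fam71a at 24 h, at 2.01, 0.34 and 1.60.

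Bcl2l15 A_51_P309307 was 1.26-fold higher in nsPEF than in sham at 24 h (log2 difference 0.34 ± 0.08, adjusted p = 0.0234), where the lowest nsPEF array lay just under the highest sham array. The call was lost without replicate 1 or 2 of S24 (adjusted p = 0.0584 and 0.0811) and without replicate 2 or 4 of E24 (adjusted p = 0.0789 and 0.0873), with differences between 0.25 and 0.33, and with normexp (0.28, adjusted p = 0.0579) or spike-in scaling (0.27, adjusted p = 0.0834). It lies in row 356, where dim probes were more often well above background on S24 than on E24 arrays, 10.9% against 0.545%, while their median was higher on E24 by 0.49. With every array centred by row band and signal class the Bcl2l15 difference was 0.35 (adjusted p = 0.0169). At 4 h the 4 nsPEF arrays lay above the 4 sham arrays by 0.14 (adjusted p = 0.333), and on the second Bcl2l15 probe by 0.22 (adjusted p = 0.707). Dim probes near these spots had median differences of 0.71 and 0.98 at 4 h.

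Sprr2h A_66_P138462 was at least 3.27-fold higher in nsPEF than in sham at 24 h (log2 difference 2.01, adjusted p = 0.0312), well above background on 3 of 4 E24 and 0 of 4 S24 arrays. Its spot lies in row 5, within 5 rows of which dim probes were well above background on 21.7% of E24 and 0.955% of S24 readings and had a median difference of 1.51. The part of this in the Sprr2h difference was not tested. With every array centred by row band and signal class the difference was 1.74 (adjusted p = 0.0661). The other Sprr2h probe, in row 298, differed by 0.65 (adjusted p = 0.16), where dim probes nearby had a median difference of 0.73. With normexp background correction, which adds an offset and narrows differences of dim probes, the A_66_P138462 difference was 0.59 (adjusted p = 0.128). The call was also lost with marked spots kept (2.01, adjusted p = 0.267), on the deposited log2 values (1.98, adjusted p = 0.269) and when only the 8 arrays compared were fitted (adjusted p = 0.199). Without replicate 4 of E24 the difference was 1.30 (adjusted p = 0.0625), and the call was also lost without replicate 2 of E24 (adjusted p = 0.0986) or replicate 1, 2 or 3 of S24 (adjusted p = 0.0711, 0.077 and 0.07). The same held without all arrays of replicate 1, 2 or 4 (adjusted p = 0.0654, 0.284 and 0.113).

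Fam71a was called higher in nsPEF at 24 h (log2 difference 1.60, adjusted p = 0.0256), yet was below background on all 8 arrays, so no fold is given. In row 62, dim probes nearby were well above background on 7.98% of E24 and 2.80% of S24 readings and had a median difference of 0.77. With every array centred by row band and signal class the Fam71a difference was 1.48 (adjusted p = 0.0488). The call was lost without replicate 1, 2 or 3 of S24 (adjusted p = 0.066, 0.0661 and 0.0696) and without replicate 2 or 4 of E24 (adjusted p = 0.052 and 0.0857). The difference was 0.30 with normexp (adjusted p = 0.162) and 1.00 with quantile normalization (adjusted p = 0.137). The call was also lost when only the 8 arrays compared were fitted (adjusted p = 0.124). The same held without all arrays of replicate 2, 3 or 4 (adjusted p = 0.118, 0.129 and 0.0976). C1qtnf7 differed in the other direction, by -0.48 (adjusted p = 0.0876), with overlapping arrays, and passed without replicate 1 of S4, 1 of E24 or 3 of E24 (adjusted p = 0.0452, 0.0492 and 0.0305). Lsmem1 at 4 h differed by 1.19 (adjusted p = 0.0559) with all 8 arrays below background, and passed without replicate 1 or 2 of E4 (adjusted p = 0.0355 and 0.0265). Dim probes around it, in row 226, had a median difference of 0.91 at 4 h, and with every array centred by row band and signal class the Lsmem1 difference was 1.14 (adjusted p = 0.061).

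**Figure D4:**
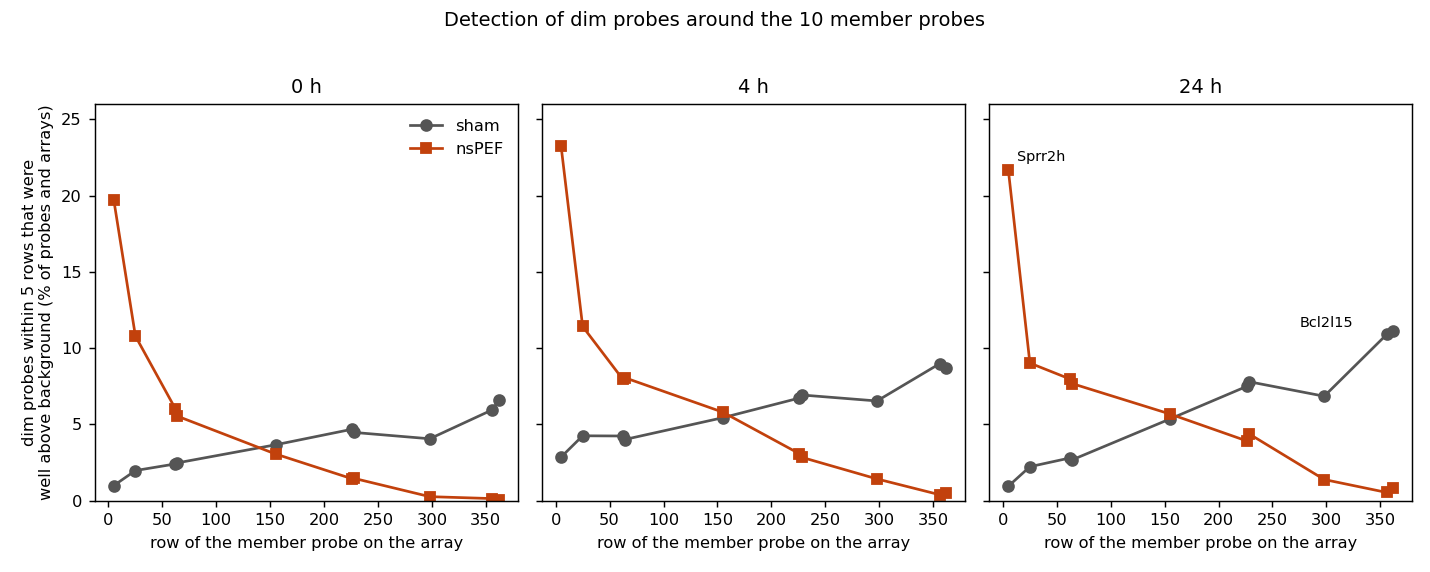
Share of readings of dim probes that were well above background (y axis, percent) among dim probes within 5 rows of each of the 10 member probes (x axis, row on the array), in sham and nsPEF at 0, 4 and 24 h. In row 5, where a Sprr2h probe lies, the nsPEF share was 21.7% at 24 h against 0.955% in sham, and in row 356, where a Bcl2l15 probe lies, it was 0.545% against 10.9%.

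The genes on either side of the members on the chromosome were read on the same arrays. Fam71a and Atf3, a stress-induced transcription factor, lie 5478 bases apart, and both were high at 0 h. Atf3 had means of 1.74 and 2.19 in S0 and E0, -1.45 and -1.57 at 4 h, followed by -2.72 and -2.49 at 24 h, where 1 E24 spot was left out. In exposed cells Atf3 fell 13.5-fold by 4 h and 25.5-fold by 24 h (adjusted p = 2.63e-15 and 3.43e-15), while Batf3, on the other side at 53640 bases, differed by 0.04 and -0.12 (adjusted p = 0.885 and 0.669).

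C1qtnf7 and Cc2d2a, a gene of the ciliary transition zone, lie 43247 bases apart. Cc2d2a probe A_55_P2128929 had means of 1.22 and 1.25 in S0 and E0, -1.71 and -1.69 at 4 h, followed by 0.49 and 0.09 at 24 h. Cc2d2a fell 7.67-fold by 4 h in exposed cells and rose 3.43-fold from 4 h to 24 h (adjusted p = 1.03e-17 and 3.79e-14), and its other probe moved likewise, 6.56-fold down and 3.45-fold up, with 1 of 4 E4 arrays well above background. At 24 h it was 1.32-fold lower in nsPEF than in sham (adjusted p = 0.00412), and on the other probe by -0.42 (adjusted p = 0.115), the direction of the C1qtnf7 difference, which was not called. Of all tested probes 5.27% were called in that comparison, and the interaction of treatment and time did not pass for Cc2d2a (adjusted p = 0.0632 and 0.283). Cpeb2, at 225700 bases on the other side, rose 2.29-fold by 4 h (adjusted p = 9.44e-07).

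Bcl2l15 and Ptpn22, a phosphatase of lymphocyte signalling, lie 1956 bases apart. Ptpn22 had means of -3.09 and -3.68 at 0 h, then 1.33 and 1.31 at 4 h, and finally -3.25 and -3.96 at 24 h, in sham and nsPEF, with 1 S24 spot left out. It rose 31.8-fold by 4 h and fell 38.8-fold by 24 h in exposed cells (adjusted p = 1.31e-09 and 8.56e-10). Ap4b1, at 9010 bases on the other side, differed by 0.04 and -0.02 at 4 h on its 2 probes (adjusted p = 0.53 and 0.801), with 1 E0 spot of the first left out.

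Lsmem1 and Ifrd1, a transcriptional co-regulator, lie 3813 bases apart and went opposite ways. Ifrd1 rose 2.23-fold and 2.54-fold by 4 h on its 2 probes (adjusted p = 1.14e-13 and 1.65e-13), where Lsmem1 fell. In nsPEF against sham at 4 h Ifrd1 was higher by 0.19 and 0.18 (adjusted p = 0.0446 and 0.111), beside 3.47% of all tested probes called. Next to Ngef, Neu2 at 156 bases differed by 0.68 and 0.39 at 4 h (adjusted p = 0.00334 and 0.0413) and Snorc at 1346 bases rose 3.43-fold (adjusted p = 0.0014), with 1 of 4 E0 arrays well above background. Next to Apol8, Myh9 rose 1.66-fold and 1.53-fold by 4 h, where Apol8 fell, and Apol9b differed by -0.06 (adjusted p = 0.618). Next to Sprr2h, Sprr2g rose 1.26-fold (adjusted p = 0.024) and Sprr2i was below background on all arrays.

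**Figure D5:**
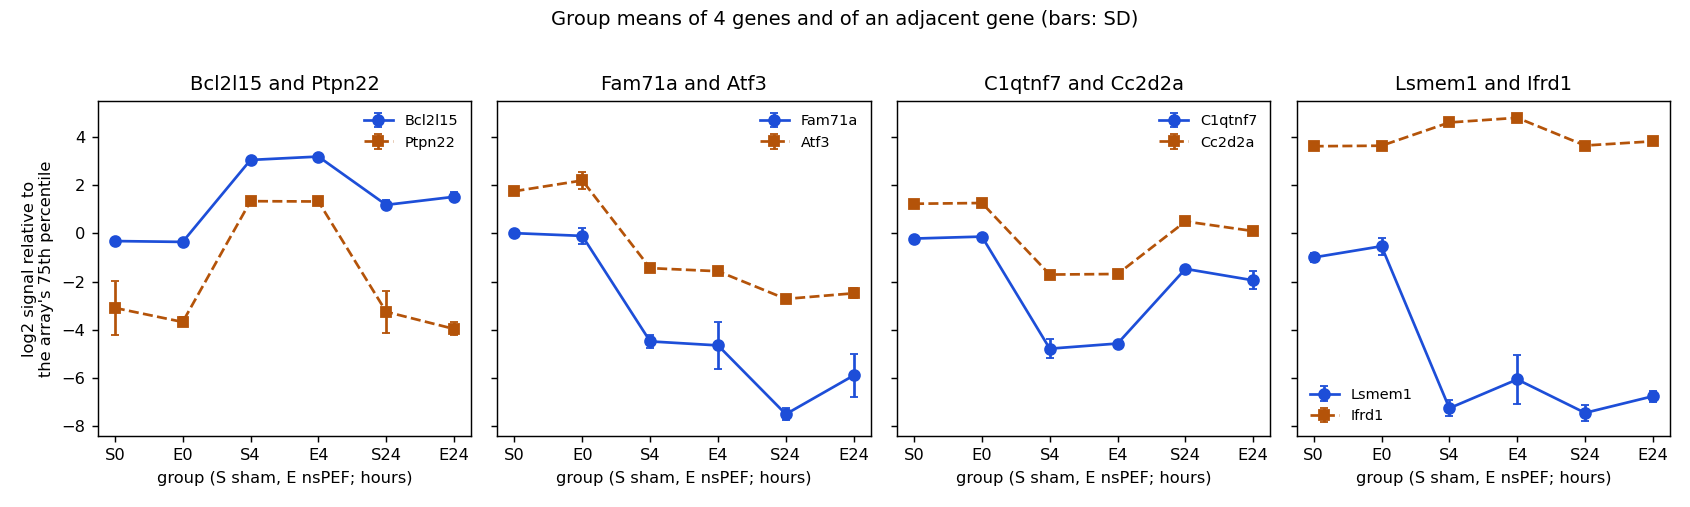
Mean log2 signal minus each array's 75th percentile (y axis, bars SD) in the 6 groups (x axis) for Bcl2l15, Fam71a, C1qtnf7 and Lsmem1 and for an adjacent gene of each. Ptpn22 is high at 4 h with Bcl2l15, Atf3 steps down with Fam71a, Cc2d2a dips at 4 h with C1qtnf7, and Ifrd1 is higher at 4 h where Lsmem1 is low. Levels of different probes are not comparable, only their courses.

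For each member probe the 3 probes with the nearest course over the 24 arrays were picked, by the root mean square distance of centred values. Their likeness follows from that choice, and r is a description over arrays that share slides. Nearest to Bcl2l15 A_51_P309307 was U90926 (distance 0.10, r = 0.998), then Apln (r = 0.990), the apelin ligand, and Rcan2 (r = 0.989), a regulator of calcineurin. Bcl2l15 A_55_P1975877, Sprr2h A_66_P138462 and Ngef each had Nipal1, a magnesium transporter, nearest (r = 0.984, 0.933 and 0.939), and Nppb, the natriuretic peptide B, or Il1rl1, the receptor of interleukin 33, among the next. Sprr2h A_55_P2743355 lay nearest to Eva1a, Inhba and Pmepa1 (r = 0.979, 0.962 and 0.967).

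Among the falling members, Lsmem1 lay nearest to Fosb on 2 probes (r = 0.984 and 0.965) and Klf10 (r = 0.971), Fam71a to Klf10, Fosb and Nr4a1 (r = 0.980, 0.951 and 0.969), and Apol8 to Nr4a1, Egr2 and Hes1 (r = 0.923, 0.916 and 0.907). All of these are transcription factors. C1qtnf7 lay nearest to Fat4, an atypical cadherin, Pcnx2 and Cxcl10, a chemokine (r = 0.984, 0.989 and 0.992).

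Relatives of the members were counted by family. Over all tested probes the median difference from 0 h to 4 h in exposed cells was 0.08, with 32.8% higher and 28.4% lower. Of 15 tested probes for small proline-rich and cornified envelope genes 8 rose and 2 fell by 4 h, with a median of 0.79. Ivl, which encodes involucrin, rose 8.74-fold by 4 h (adjusted p = 1.86e-11), with 1 of 4 E0 arrays well above background, and Cnfn was 1.82-fold above 0 h at 24 h (adjusted p = 0.0152).

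Of 28 tested Bcl2 family probes 13 rose and 5 fell by 4 h, with a median of 0.15. Bmf, a BH3-only protein, fell 9.21-fold by 4 h on 1 of its probes (adjusted p = 4.86e-15) and was 1.77-fold below 0 h at 24 h (adjusted p = 1.41e-05), while its other probe differed by 0.15 at 4 h (adjusted p = 0.723). Of 17 tested probes for C1q and tumour necrosis factor related proteins 5 rose and 6 fell by 4 h, with a median of 0.40. C1qtnf1 fell 6.17-fold (adjusted p = 6.98e-13), and C1ql4 was at least 1.32-fold above 0 h at 24 h (adjusted p = 0.00526). Of 10 tested apolipoprotein L probes 1 rose and 5 fell by 4 h, with a median of -0.18. Apol7a was at least 1.39-fold lower at 4 h on 1 probe (adjusted p = 2.81e-08) and 2.75-fold above 0 h at 24 h on another (adjusted p = 0.00441). On that other probe 1 of 4 E0 arrays was well above background and the groups overlapped, so the fold rests in part on unmeasured values. Of 7 tested probes for the Fam71 family and Rab2, 2 rose and 0 fell by 4 h, with a median of 0.20. Fam71f2 rose 1.94-fold by 4 h (adjusted p = 2.59e-06), and Fam71f1 was at least 1.46-fold above 0 h at 24 h (adjusted p = 0.0242). Lsmem2 had no probe under that symbol.

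From 0 h to 24 h in exposed cells, where the median over all tested probes was 0.07, with 24.1% higher and 18.3% lower, 5 of the cornified envelope probes were higher and 2 lower (median 0.24). Of the Bcl2 family probes 13 were higher and 2 lower (median 0.18). The C1q list had 3 higher and 5 lower (median 0.09), the apolipoprotein L list 2 and 2 (median -0.07), and the Fam71 and Rab2 list 2 and 3 (median -0.19).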

How the data were processed

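TM3 RNA was labelled with Cy3 and hybridized to 24 one-colour Agilent arrays by the authors. The deposited scanner files, made by the authors with Agilent Feature Extraction 12.0, hold a median, a local background and a processed intensity per spot, the last with the background subtracted and detrended, and no scaling between arrays. A deposited table of log2 values, which the authors scaled in GeneSpring to each array's 75th percentile and centred on each probe's median, was an alternative. Here spots marked non-uniform or as population outliers were left out, spots of a probe averaged, and the array's 75th percentile over its 62976 spots less 3671 control spots was subtracted on the log2 scale. A probe well above background on at least 2 of 4 arrays of a group was tested (37684 probes). In R 4.3.3, limma 3.58.1 was used, with data.table (version 1.17.8) to read files, and 6 group means were fitted to all arrays and p adjusted by Benjamini-Hochberg over all tested probes, threshold 0.05. 

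The members, lists and tests were chosen with earlier results of these data known. Besides the members, the text names the 3 nearest probes in course, the nearest genes on the chromosome with a probe, the called probe of each family list with the largest difference at 4 h and 24 h, and marker genes. 1 family list is not reported here. Dim probes were well above background on at most 6 arrays. Number of arrays and signal over background limit the precision. No 2 arrays correlated above 0.988. In simulated data with 200 of 35691 probes changed by 1 between nsPEF and sham at 24 h, 140 were recovered with 4 false calls. The simulated noise was independent and held no effect of slide, place or background, so it gives no rate of false calls for the real arrays. Samples were not paired by replicate number in the main fit. The paper states that the tests of each biological replicate, adhesion apart, used a common cell suspension, so same-numbered samples may share one. Alternatives covered scaling, background, filter, marked spots, a floor, the test, the arrays fitted, a replicate block, place on the array, and each array left out.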

Additional observations from a re-analysis of the deposited data

Results flagged for a closer look

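Ngef in nsPEF-exposed cells at 24 h had an array apart from the other 3. Replicate 3 read -4.43, while the nearest of the others read -4.01. All 4 arrays were well above background there. Among 58 groups of 4 arrays and member probes tested in this way it was the only such case, and chance gives about 5% of groups. No difference between the time courses of exposed and sham cells passed the threshold.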

How the results depend on the processing

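The count of member probes called between 4 h and 0 h in exposed cells was 9 under every alternative and with every array left out. The counts between 24 h and 0 h stayed between 6 and 9, those between 24 h and 4 h between 7 and 9, and those at 0 h and of the interaction at 0. For nsPEF against sham at 4 h the count was 2 with spike-in scaling (Lsmem1 and Bcl2l15 A_51_P309307) and 1 (Lsmem1) with no filter, with a floor at background and with the replicate block, against 0 as reported, and 0 to 1 when arrays were left out. For nsPEF against sham at 24 h it was 0 with normexp background correction, 0 when only the 8 arrays compared were fitted and 7 with the floor, against 3, and 0 to 4 when arrays were left out. The floor gives probes below background the floor of their array, which differs between arrays. The cause of the other changes was not tested. The replicate block paired samples by number, and same-numbered samples had correlations from -0.07 to 0.10 over 24 pairs. Besides the Lsmem1 call at 4 h the block added that of Lsmem1 between 24 h and 4 h (adjusted p = 0.0344).

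Sham differences changed sign in 4 cases, each between values below background on at least 7 of 8 arrays. With spike-in scaling Sprr2h A_55_P2743355 differed by 0.18 between 24 h and 0 h and Lsmem1 by 0.43 between 24 h and 4 h. With normexp Sprr2h A_66_P138462 differed by -0.10 and Bcl2l15 A_55_P1975877 by -0.15 between 24 h and 0 h. With spike-in scaling the median of all tested probes was 0.70 in sham and 0.54 in exposed cells from 0 h to 24 h, against 0.02 and 0.07 as reported, and 0.16 against 0.08 in exposed cells from 0 h to 4 h, and for nsPEF against sham 0.13 at 0 h and 0.18 at 4 h against -0.02 and 0.01. Normexp, whose offset narrows differences of dim probes by construction, gave 4 h differences in exposed cells of 3.86 for Ngef, 3.22 and 1.28 for Sprr2h, 3.32 and 2.22 for Bcl2l15, -2.29 for Lsmem1, -2.44 for Fam71a, -2.40 for C1qtnf7 and -1.25 for Apol8.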
